A study of Mus musculus with 8 samples.

Results

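The regions described here were stretches of open chromatin that lay at the ends of genes and were called in all 8 libraries of an ATAC-seq study of mouse macrophages. The peaks of the 8 lists on the main chromosomes were merged wherever they shared at least 1 base, which gave 87260 regions. Of these, 36009 were called in all 8 lists, and 9888 of those lay within 1 kb of the start or the finish of a protein-coding gene in the GRCm38 annotation. The 9888 regions were 27.5% of the regions called in every list and lay at an end of 10533 genes, which is 48.1% of the 21883 protein-coding genes in the annotation. The remaining 26121 regions called in all lists lay farther from gene ends and served for comparison. The regions were chosen by the peak calls and by position, so their presence in every library is not a finding, their widths come from the same calls, and regions that closed fully in 1 group are absent from the set by construction.

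ATAC-seq uses a transposase that inserts sequencing adapters into accessible DNA, so that called peaks mark open chromatin. Bone marrow cells of wild-type mice and of mice deficient in Nfat5 were grown for 7 days in 25% medium conditioned by L929 cells, which supply the growth factor M-CSF and so yield macrophages. Cultures stayed untreated or received E. coli lipopolysaccharide (LPS) at 0.3 ng/ml for 2 h. Each of the 4 groups, wild-type (WT) untreated, WT with LPS, Nfat5 knockout (KO) untreated and KO with LPS, had 2 libraries. The labels do not say how Nfat5 was inactivated or whether each library came from its own mouse. In the titles each untreated library has the same code as 1 LPS library of its genotype. P-values therefore measure the spread between libraries, which may be technical.

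Promoters of genes that a cell uses, and of housekeeping genes in every cell, carry an open, nucleosome-depleted stretch over the transcription start site. LPS, a component of the bacterial cell wall, is sensed by the receptor TLR4, and within hours NF-kB and AP-1 factors drive inflammatory genes in macrophages. NFAT5 is a Rel-family transcription factor known for the response to osmotic stress and for a part in macrophage inflammatory gene expression.

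The promoter sequences below are a selection from the regions named in the results. Each runs for 250 bases up to the base before a RefSeq start site (GRCm38.p6), 5′ to 3′ on the strand of the gene. Of 11 promoter windows in regions wider with LPS, 4 held the NF-kB consensus, and all 4 are printed. The windows of Cish, Irgq and Lcp1 held no match and are not printed. In the first 5, capitals mark matches to the NF-kB consensus (by its usual name, on both strands), and in the last pair they mark the GC box GGGCGG on either strand. Cxcl2 (chr5:90903649-90903898, plus strand), Tnfaip2 (chr12:111442411-111442660, plus), Ebi3 (chr17:55952373-55952622, plus) and Ccrl2 (chr9:111057519-111057768, minus) lay in regions that were wider with LPS. Rel (chr11:23770970-23771219, minus) lay in a region that was narrower with LPS. Pim1 (chr17:29490535-29490784, plus) was wider with LPS and held no NF-kB consensus match in this window, and Ncoa1 (chr12:4477183-4477432, minus) was narrower in the knockout.
Cxcl2: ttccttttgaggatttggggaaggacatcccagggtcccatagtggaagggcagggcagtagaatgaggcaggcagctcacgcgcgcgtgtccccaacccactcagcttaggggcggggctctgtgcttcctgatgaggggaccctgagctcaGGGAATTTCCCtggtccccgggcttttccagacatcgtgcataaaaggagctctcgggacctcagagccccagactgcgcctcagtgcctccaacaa
Tnfaip2: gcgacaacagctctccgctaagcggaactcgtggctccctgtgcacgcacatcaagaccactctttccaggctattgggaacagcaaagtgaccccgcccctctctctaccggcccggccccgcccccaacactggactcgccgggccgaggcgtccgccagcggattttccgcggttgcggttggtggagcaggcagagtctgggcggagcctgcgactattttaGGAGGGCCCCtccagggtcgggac
Ebi3: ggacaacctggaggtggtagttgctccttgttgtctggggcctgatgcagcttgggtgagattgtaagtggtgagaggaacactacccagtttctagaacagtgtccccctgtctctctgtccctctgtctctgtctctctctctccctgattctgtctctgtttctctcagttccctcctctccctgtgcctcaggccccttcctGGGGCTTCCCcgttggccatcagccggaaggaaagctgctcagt
Ccrl2: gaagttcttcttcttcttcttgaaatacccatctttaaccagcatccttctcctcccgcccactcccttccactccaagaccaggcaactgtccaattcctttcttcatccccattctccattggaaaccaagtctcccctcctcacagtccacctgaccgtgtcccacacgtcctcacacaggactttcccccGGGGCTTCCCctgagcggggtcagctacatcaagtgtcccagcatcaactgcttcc
Rel: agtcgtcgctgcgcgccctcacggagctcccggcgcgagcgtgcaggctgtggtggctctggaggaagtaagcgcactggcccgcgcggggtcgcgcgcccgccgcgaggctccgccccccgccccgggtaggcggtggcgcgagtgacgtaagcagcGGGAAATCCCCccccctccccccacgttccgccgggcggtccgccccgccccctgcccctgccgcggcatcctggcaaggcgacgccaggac
Pim1: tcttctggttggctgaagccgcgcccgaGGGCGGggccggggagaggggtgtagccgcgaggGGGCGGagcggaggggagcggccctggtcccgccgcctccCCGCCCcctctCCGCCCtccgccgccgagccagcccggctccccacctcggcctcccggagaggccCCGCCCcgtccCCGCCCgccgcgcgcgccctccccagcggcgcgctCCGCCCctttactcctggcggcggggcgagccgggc
Ncoa1: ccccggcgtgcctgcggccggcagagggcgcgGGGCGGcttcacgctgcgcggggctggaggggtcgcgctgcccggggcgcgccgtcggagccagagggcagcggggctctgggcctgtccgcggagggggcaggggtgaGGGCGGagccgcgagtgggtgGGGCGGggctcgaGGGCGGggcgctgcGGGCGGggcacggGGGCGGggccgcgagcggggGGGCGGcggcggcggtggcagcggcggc

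The regions were mostly promoters. Of the 9888, 8057 (81.5%) covered a gene end and the others lay within 1 kb of one. A gene start alone lay within reach of 7027 (71.1%), a gene finish alone of 638 (6.45%) and both of 508 (5.14%), while for 1715 (17.3%) the strand of the gene was not in the table used. At 870 of them, starts of genes on opposite strands lay together. RefSeq promoter windows of 300 bases, from 250 before to 50 after a start site, were matched for 6779 regions (8315 windows). These windows held a median of 22 CpG dinucleotides and 61.7% G and C, against 13 and 56.3% over all 21262 windows. CpG-rich promoters are typical of widely expressed genes. All 13 macrophage markers checked had such a region, among them Spi1 and Cebpa, which encode lineage-defining transcription factors, Csf1r, the M-CSF receptor, and Tlr4. Of the markers of other cells, 1 of 8 T cell genes (Cd3d), 2 of 6 B cell genes (Ms4a1, Ebf1), 1 of 8 neutrophil genes (S100a8) and 0 of 6 fibroblast genes had one. The part that other cells may have in the results was not tested, and in such bulk libraries fewer cells with an open region and less opening per cell cannot be told apart.

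The width of a region in a library was the number of bases under that library's peaks in it, which is the only quantity the deposited lists give, since they hold positions and no scores or reads. A width depends on where the peak caller placed the edges, so it is not a level of accessibility, and the read depth behind it is unknown. The lists held 60117 and 59218 peaks (WT untreated), 57691 and 55506 (WT with LPS), 56346 and 59811 (KO untreated), and 54911 and 54027 (KO with LPS). Within each genotype both LPS lists thus held fewer peaks than both untreated ones, and the part of this in the widths below was not tested.

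At gene ends the median width was 789 and 803 bases in the WT untreated libraries and 741 and 755 in WT with LPS. It was 777 and 763 bases in KO untreated and 704 and 691 in KO with LPS. Every LPS library thus lay below every untreated one, and the KO libraries with LPS were the lowest. Away from gene ends the medians were 525 and 530, 481 and 482, 518 and 520, and 479 and 468 bases in the same order, so that the regions at gene ends were 1.47 to 1.57 times as wide in each library. The summed width was 8.13 and 8.26 Mb in WT untreated and 7.34 and 7.17 Mb in KO with LPS. The 2 libraries of a group differed at a region by a median absolute log2 value of 0.131 (WT untreated) and 0.145 (WT with LPS). It was 0.134 in KO untreated and 0.162 in KO with LPS. With the sign kept, library 2 minus library 1, the medians were 0.016, 0.0090, -0.015 and -0.015 in the same order. Over all regions at gene ends the median differences, also signed, were -0.092 (LPS) and -0.054 (KO). Opposite signs cancel in signed medians, so the absolute values are not a like measure for them. In 8676 regions (87.7%) every library had a single peak.

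**Figure D1:**
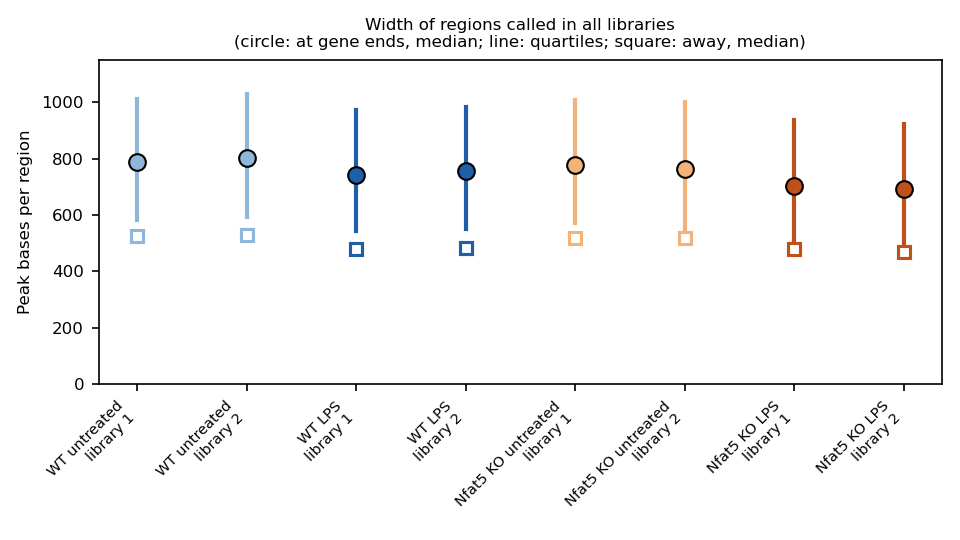
Median width in bases of the 9888 regions at gene ends in each of the 8 libraries (circles, with lines from the lower to the upper quartile) and of the 26121 regions away from gene ends (open squares). At gene ends the 4 untreated medians lie between 763 and 803 bases and the 4 LPS medians between 691 and 755.

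With LPS, 79 regions at gene ends were narrower and 15 were wider past the test (limma on log2 width over all 36009 regions called in every list, 4 LPS libraries against 4 untreated, two-sided, Benjamini-Hochberg adjusted p under 0.05). At an unadjusted p under 0.05 there were 1682 (17%, against 21.4% of all tested). Over all regions tested 1.25% were narrower and 0.444% wider, against 0.799% and 0.152% at gene ends, so the gene ends held a smaller share of both. The median log2 difference was -0.092 at gene ends, a width lower by 6.2% of the untreated one, and -0.12 away from them. At the 4944 regions at gene ends of middle mean width it was also -0.092. At the 8534 regions away from gene ends in the same width range it was -0.11, so the gap was smaller at like width. Of the 9888 regions, 75.8% had a lower mean in LPS libraries. All 4 LPS libraries lay below all 4 untreated ones at 837 regions (8.46%, against 10.8% of all tested) and above them at 119 (1.2%, against 2.6%). The libraries' own medians over all tested regions differed by -0.12 between LPS and untreated. When each library was centred on its median, 31 regions at gene ends were narrower and 31 wider. Over all regions tested 168 were then narrower (0.467%) and 239 wider (0.664%). At gene ends the 31 narrower were among the 79, and the 15 wider were among the 31. Relative to that shift the median at gene ends was +0.031, so its sign reversed once the libraries' own shift was taken out. The adjusted p-values lay close to the threshold, from 0.0182 to 0.0496. Without KO LPS library 1 the test called 60 narrower and 5 wider, without KO LPS library 2 it called 23 and 3, and without WT LPS library 2 it called 10 and 2. Without any 1 of the other 5 (both WT untreated, both KO untreated, WT LPS library 1) it called 0 in either direction. With a block for the shared title code, whose meaning the labels do not give, none of these LPS calls was kept.

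**Figure D2:**
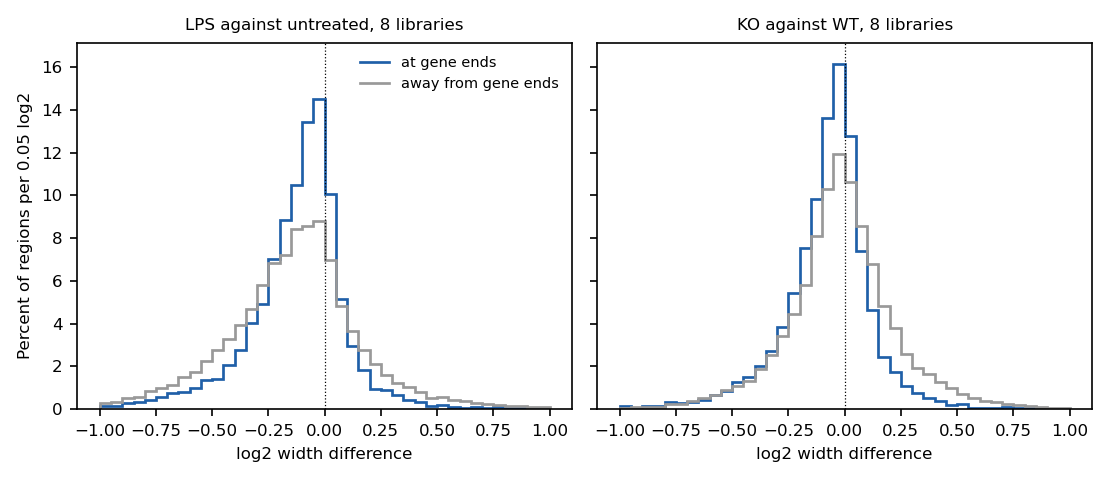
Share of regions (percent, in bins of 0.05 log2) by their log2 width difference between LPS and untreated libraries (left) and between KO and WT libraries (right), for the 9888 regions at gene ends and the 26121 away from them. Both LPS curves sit left of 0, with medians of -0.092 and -0.12, and in the KO panel the gene ends sit farther left, with medians of -0.054 and -0.017.

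The regions that widened with LPS included several promoters of genes that inflammatory signals induce. At Cxcl2, a chemokine that recruits neutrophils (chr5:90903178-90904277, over the start), the width was 595 and 612 bases in WT untreated, 1080 and 1100 in WT with LPS, 567 and 581 in KO untreated, and 931 and 784 in KO with LPS. All 4 LPS libraries lay above all 4 untreated ones. The 2 KO LPS libraries lay below the 2 WT LPS ones, but that difference did not pass (-0.35, adjusted p = 0.334 by limma). Such a layout, 2 libraries against 2, was found at 31.3% of all regions at gene ends and 24.8% of all tested. The mean rose from 589 ± 19.3 to 974 ± 147 bases (SD, n = 4), a log2 difference of 0.71 (SE 0.075, limma adjusted p = 0.0257).

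At Cish, a SOCS-family inhibitor of cytokine receptors (chr9:107295640-107296905), the width was 729 and 737 bases in WT untreated, 1262 and 1231 in WT with LPS, 752 and 768 in KO untreated, and 1119 and 1196 in KO with LPS. The treatments did not overlap, and the untreated libraries of both genotypes lay between 729 and 768 bases. The log2 difference was 0.69 (SE 0.052, adjusted p = 0.0182 by limma), and Cish was the 1 region at a gene end that passed as wider in the WT libraries alone (0.77, adjusted p = 0.0473).

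At Tnfaip2, a gene that TNF induces (chr12:111441493-111443013), the width was 826 and 781, 1521 and 1241, 749 and 745, and 1121 and 1225 bases in the same order of groups. At Pim1, a kinase gene induced by cytokines (chr17:29490240-29491420), it was 538 and 804, 981 and 1181, 498 and 469, and 957 and 906 bases. Neither gene's LPS libraries overlapped its untreated ones, and the log2 differences were 0.71 (adjusted p = 0.0259) and 0.83 (adjusted p = 0.0488) by limma. The largest rise was at Grap, an adaptor protein gene, with 253 and 228 bases in WT untreated, 567 and 508 in WT with LPS, 319 and 254 in KO untreated, and 584 and 558 in KO with LPS, a log2 difference of 1.08 (adjusted p = 0.0268).

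The rule for named genes, the 10 largest differences with arms that do not overlap, further gave Tmco6 (1.00 on the log2 scale), Cd55 (0.95), which encodes a complement regulator, Hcar2 (0.78), a receptor for niacin, Lcp1 (0.74), which encodes the actin-bundling protein L-plastin, and Irgq (0.72). Lcp1 shares its region with the start of Lrrc63. At Cd55 the width in WT untreated library 1, 176 bases, was close to the narrowest peak in that list, 174. The last 5 of the 15 are named because they complete the list, with their values known. They were Sae1 (0.67), a subunit of the SUMO-activating enzyme, Slc12a3 (0.66), Dut (0.66), Ccrl2 (0.54), a chemerin-binding receptor, and Ebi3 (0.49), a subunit of interleukin 27. At Ebi3 the width was 526 and 547 bases in WT untreated, 798 and 764 in WT with LPS, 512 and 532 in KO untreated, and 735 and 673 in KO with LPS. At Ccrl2 it was 535 and 567, 885 and 914, 606 and 530, and 697 and 763 bases in that order. Both promoters were wide in every LPS library and narrow in every untreated one. Of the 15, 14 had treatments that did not overlap, the exception being Sae1. All 15 had a difference of the same sign in WT and in KO libraries, and 10 had a single peak in every library. The calls rest on the mean of both genotypes, so the shared sign and the lack of overlap largely follow from the selection.

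Where 1 start site lay inside a region and no other did, the peak could be measured on either side of it. At Cxcl2 the stretch after the start site was 48, 77, 25 and 46 bases long in the untreated libraries and 367, 378, 213 and 242 with LPS, while the stretch before it had means of 539 and 673 bases. At Pim1 the stretch after the start site had a mean of 209 bases untreated and 594 with LPS, and the stretch before it 368 and 411. At Cish the growth was on the other side. Its stretch before the start site was 533, 541, 541 and 547 bases long untreated and 1015, 1019, 931 and 964 with LPS, and the stretch after it had means of 205 and 219 bases. Cxcl2 and Pim1 thus extended mainly into the gene and Cish upstream of it. Among all 3921 regions measurable in this way, the stretch before the start site was longer with LPS in 28.3% and the stretch after it in 31.7%.

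The narrowing regions were led by Cd300lb, an activating receptor gene of myeloid cells (chr11:114933585-114934630, over the start). Its width was 952 and 918 bases in WT untreated, 253 and 339 in WT with LPS, 811 and 963 in KO untreated, and 270 and 243 in KO with LPS. The LPS libraries held 243 to 339 bases and the untreated ones 811 to 963. The mean fell from 911 ± 69.4 to 276 ± 43.3 bases (SD, n = 4), a log2 difference of -1.73 (SE 0.131, limma adjusted p = 0.0182). The lost stretch lay in the gene: after the start site the mean was 713 bases untreated and 100 with LPS, and before it 197 and 175 bases. At Rmnd5b (-1.24) the loss was before the start site, with means of 525 and 109 bases there and 224 and 210 after it.

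Lsp1 and Tab1 were among the 10 regions narrowed most. At Lsp1, an actin-binding protein of leukocytes, the width was 687 and 738 bases in WT untreated, 227 and 242 in WT with LPS, 763 and 1081 in KO untreated, and 354 and 204 in KO with LPS (log2 difference -1.68, limma adjusted p = 0.0289). At Tab1, an adaptor that activates the kinase TAK1 below TLR4, it was 1193 and 1244, 469 and 656, 1116 and 1166, and 509 and 343 bases (-1.29, adjusted p = 0.0289 by limma). Neither region's treatments overlapped. The others, from -1.69 to -1.26, were Pign, which acts in GPI anchor synthesis, Rassf5, a Ras and Rap effector of leukocyte adhesion, Ptger3, a prostaglandin E2 receptor, Slc45a3, Arhgdib and Prkab1, a subunit of AMP-activated kinase. Pign and Prkab1 were reached at their finish and the others of this group at a start or at an end of unknown strand.

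Rel, which encodes the NF-kB subunit c-Rel (chr11:23769690-23771867), also narrowed with LPS. Its width was 2110 and 2074 bases in WT untreated, 1081 and 1232 in WT with LPS, 2050 and 1961 in KO untreated, and 1154 and 1434 in KO with LPS. The untreated libraries lay between 1961 and 2110 bases and the LPS ones between 1081 and 1434, a log2 difference of -0.75 (SE 0.082, limma adjusted p = 0.0257). Mapkapk2, a kinase downstream of p38, held 940 and 1439, 485 and 551, 1303 and 855, and 485 and 397 bases in the same order (-1.22, adjusted p = 0.044 by limma). Of the 79 narrowed regions, 54 lay at a start alone, 11 at a finish alone, 4 at both and 10 at an end of unknown strand, and 34 had more than 1 peak in some library. The treatments did not overlap at 67 of the 79, and the difference was negative in WT at 77 and in KO at all 79. The calls rest on the mean of the WT and KO differences in these same libraries, so these counts largely follow from the selection. A shared sign did not mean a like size: at Apobec1 the difference was -0.84 in WT and -0.046 in KO. At Cars2 it was -0.046 in WT and -1.20 in KO.

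**Figure D3:**
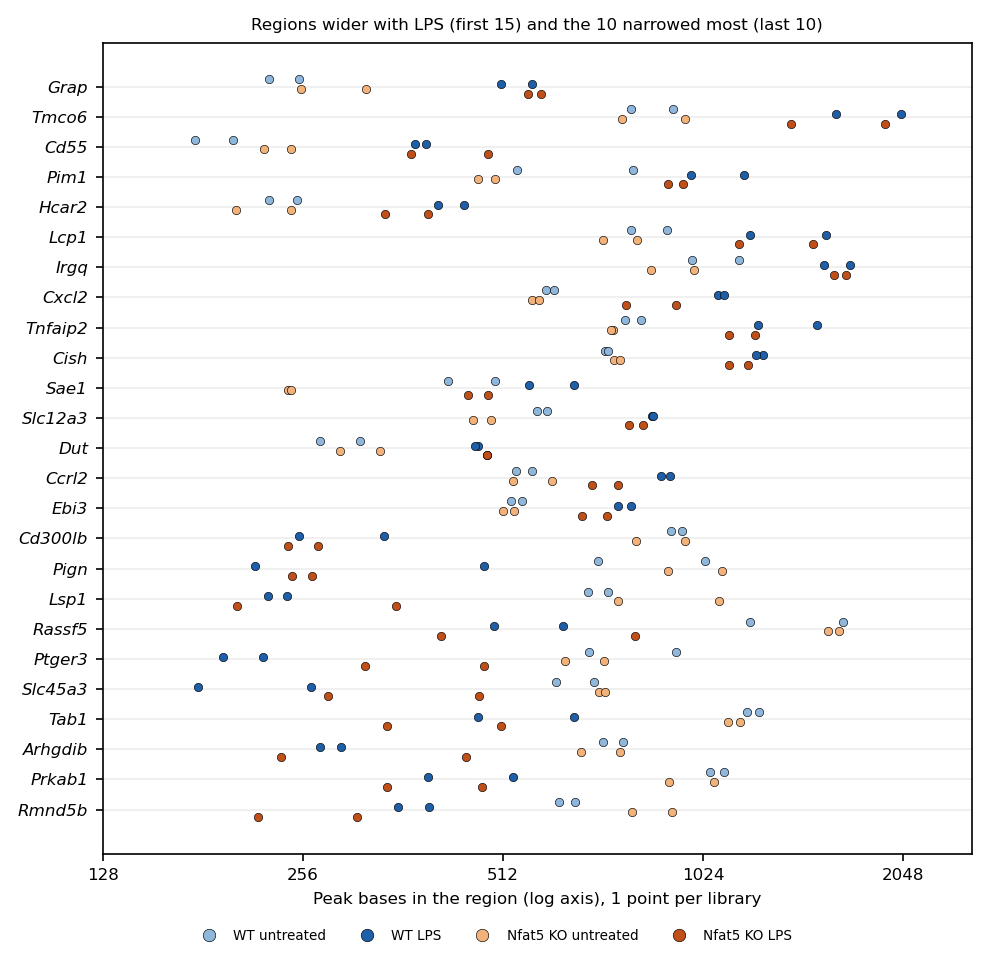
Width in bases (log axis) of the 15 regions that passed as wider with LPS and of the 10 that narrowed most, named by the gene at the nearest end, with 1 point for each of the 8 libraries. In the upper rows dark points (LPS) sit to the right of light ones (untreated), as at Cish, except at Sae1, where they overlap, and in the lower rows to the left, as at Cd300lb.

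The NF-kB consensus was found in 4 of 11 promoter windows in the widened regions (36.4%), those of Cxcl2, Tnfaip2, Ebi3 and Ccrl2, and in 11 of 59 windows in the narrowed ones (18.6%). It was in 8.77% of the 8315 windows in all regions at gene ends and in 7.91% of all 21262 windows. The windows counted here are the 250 bases before a start site. The NFAT core TGGAAA, searched on both strands, was in 5 of the 11 (45.5%), of which 3 were windows of Ccrl2 that share 1 region, in 10.2% of the narrowed, 14% of all at gene ends and 17% of all windows. The GC box was in 72.7%, 71.2%, 63.2% and 42.6% of the 4 sets. A match says only that the letters occur.

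In the knockout, 1 region at a gene end passed as narrower and 0 as wider (limma, 4 KO libraries against 4 WT, 0.00278% of all regions tested called in each direction, 1096 of the 9888, or 11.1%, at an unadjusted p under 0.05 against 10.6% of all tested). It was the start of Ncoa1, a coactivator of nuclear receptors (chr12:4476805-4477691). The width there was 712 and 833 bases in WT untreated, 737 and 668 in WT with LPS, 276 and 273 in KO untreated, and 195 and 182 in KO with LPS. The 4 KO libraries lay far below the 4 WT ones with either treatment, and the log2 difference was -1.69 (SE 0.109, adjusted p = 0.0438 by limma). With LPS the KO widths were close to the narrowest peak in those lists, 167 bases in each. The call was lost without any 1 of the 8 libraries, and also with a block for the replicate number. With LPS alone Ncoa1 also passed (-1.90, adjusted p = 0.0485 by limma).

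The median log2 difference between KO and WT was -0.054 at gene ends and -0.017 away from them. The 4944 regions at gene ends of middle mean width had -0.056, and the 8534 regions away from gene ends with a mean width in the same range had -0.014. The median was -0.030 without treatment and -0.073 with LPS. All 4 KO libraries lay below all 4 WT ones at 401 regions (4.06%, against 2.97% of all tested) and above them at 54 (0.546%, against 1.08%). After centring, the median at gene ends was -0.014. It was +0.0049 untreated, so that the sign reversed there, and -0.028 with LPS. Narrower regions had more negative medians on the log2 scale, on which the same number of bases counts for more in a narrow region. The regions were put in 4 equal groups of 2472, from the narrowest to the widest by mean width. For KO the medians were -0.096, -0.071, -0.045 and -0.031, and for LPS -0.14, -0.11, -0.079 and -0.066. In the narrowest group the median widths were 472 and 430.5 bases in WT (untreated, LPS) and 442.5 and 386.5 in KO. In the widest they were 1200 and 1146 in WT and 1172 and 1100 in KO. The narrowest group thus did not clearly lose more bases. Regions at a gene finish alone had a KO median of -0.014 and an LPS median of -0.14, against -0.057 and -0.089 at a start alone.

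The regions that followed Ncoa1 in size did not pass the test, though their genotypes did not overlap. At Reck, an inhibitor of metalloproteinases, the width was 543 and 561 bases in WT untreated, 720 and 678 in WT with LPS, 353 and 265 in KO untreated, and 279 and 271 in KO with LPS (-1.10, adjusted p = 0.108 by limma). At Ilrun it was 992 and 1019, 978 and 925, 512 and 428, and 427 and 484 bases (-1.08, adjusted p = 0.0659). At Tcf7l1, a TCF/LEF transcription factor, it was 684 and 609, 763 and 831, 311 and 352, and 307 and 328 bases (-1.15, adjusted p = 0.0659). In each, every KO library lay below every WT one with or without LPS. The other regions by the same rule were Gkap1 (-1.58), Zdhhc23 (-1.34), Csrnp1 (-1.20), Slc6a13 (-1.07), Tnfrsf10b (-1.06) and Chac1 (-1.02), with adjusted p from 0.0798 to 0.226 by limma. At Gkap1 the width in KO LPS library 1, 169 bases, was close to the narrowest peak in that list, 167.

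On the wider side none passed. At Cep97, a centrosomal protein gene reached 774 bases from its finish, the width was 213 and 206 bases in WT untreated, 212 and 194 in WT with LPS, 408 and 451 in KO untreated, and 401 and 411 in KO with LPS (1.02, adjusted p = 0.0883 by limma). The genotypes did not overlap, and the LPS difference was -0.063 (adjusted p = 0.759). The others were Pcsk1 (1.19), Erich6 (1.10), Olfr1230 (1.01), Cacnb1 (0.86), Slc1a1 (0.86), Sstr1 (0.81), Arhgef6 (0.79), Sem1 (0.75) and Itih5 (0.74). Pcsk1, a proprotein convertase, and Sstr1, a somatostatin receptor, are known from endocrine and neural cells, and the regions of Pcsk1, Cep97, Olfr1230 and Sem1 lay at a finish.

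**Figure D4:**
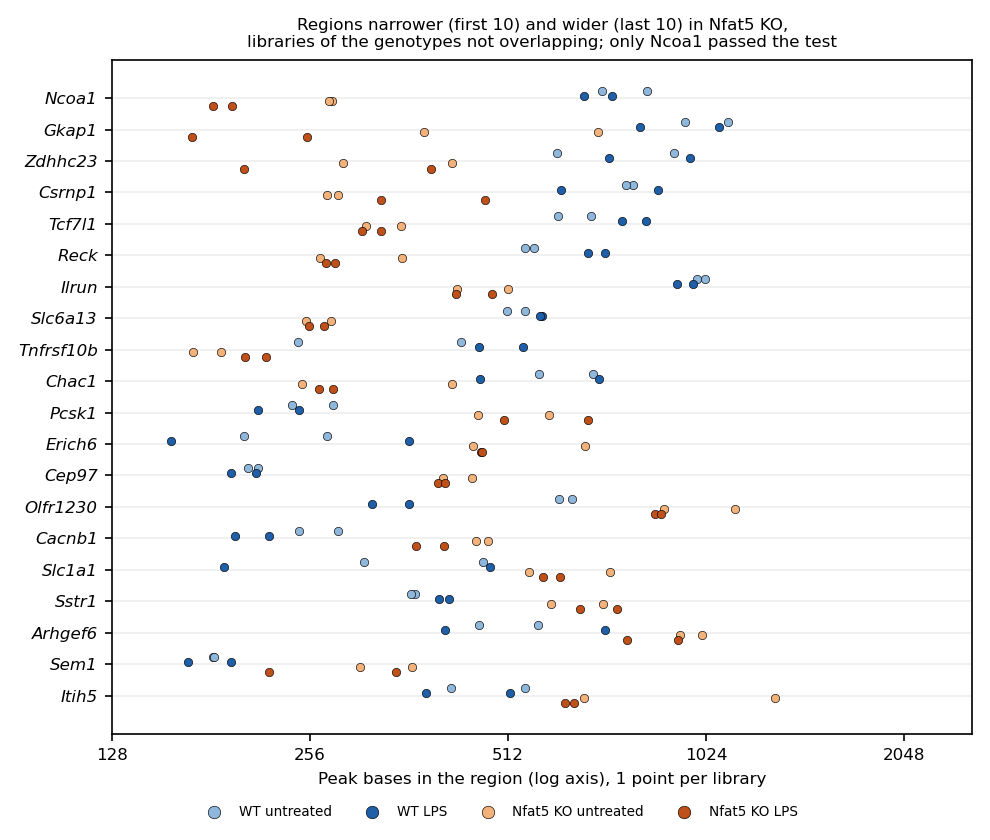
Width in bases (log axis) of the 10 regions narrowest and the 10 widest in KO relative to WT among those whose genotypes do not overlap, with 1 point for each of the 8 libraries. Orange points (KO) sit left of blue ones (WT) in the upper 10 and right in the lower 10, and of the 20 regions Ncoa1 passed the test.

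Within 1 genotype or treatment, with 2 libraries against 2, few regions passed. In WT, LPS narrowed 2 regions at gene ends (0.0202%, against 0.0472% of all tested) and widened 1 (0.0101%, against 0.0167%). In KO it called 0 in either direction by limma (0.0% of all tested), with 1342 regions at gene ends (13.6%) at an unadjusted p under 0.05, against 13.4% of all tested. Untreated, KO against WT called 0 by limma (584 regions at gene ends, 5.91%, at an unadjusted p under 0.05, against 6.24% of all tested). With LPS it called 2 narrower and 2 wider at gene ends (0.0202% in each direction, against 0.0167% of all tested). The difference of the LPS effect between genotypes called 0 by limma (643 regions at gene ends, 6.5%, at an unadjusted p under 0.05, against 6.47% of all tested), so no region was shown to respond differently. These few regions are named because they are all that passed, with their values known.

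The 2 that LPS narrowed in WT were also the 2 that were wider in KO with LPS. At the start of Ivns1abp, which encodes a protein that binds influenza NS1 (chr1:151342873-151344607), the width was 1618 and 1564 bases in WT untreated, 695 and 645 in WT with LPS, 1701 and 1588 in KO untreated, and 1296 and 1343 in KO with LPS. The WT libraries with LPS stood apart from the other 6. The LPS difference in WT was -1.25 (adjusted p = 0.0218) and the KO difference with LPS 0.98 (adjusted p = 0.0454), both by limma and both using the same WT LPS libraries, while the test of the difference between genotypes gave 0.93 (adjusted p = 0.274). At the finish of Apobec1, an RNA-editing cytidine deaminase (chr6:122575764-122577396), the width was 1492 and 1513, 855 and 824, 1553 and 1565, and 1502 and 1519 bases. There too WT with LPS was the only narrow group, with -0.84 for LPS in WT (adjusted p = 0.0261), 0.85 for KO with LPS (adjusted p = 0.0454) and 0.79 for the difference (adjusted p = 0.273) by limma.

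Cars2, the mitochondrial cysteinyl-tRNA synthetase (chr8:11549797-11550967), had the opposite layout. Its width was 1115 and 1100 bases in WT untreated, 1110 and 1037 in WT with LPS, 1159 and 1102 in KO untreated, and 471 and 512 in KO with LPS. KO with LPS was narrower than WT with LPS by -1.13 on the log2 scale (adjusted p = 0.0454 by limma), and the difference between genotypes was -1.16 (adjusted p = 0.273). Among the rule's largest differences between genotypes were Pou3f1 (-2.20), Arl6ip5 (-1.95), Lcor (-1.87) and Stk26 (-1.77) on the side narrower with LPS in KO, and Zfp820 (2.21), Eps8 (1.97), Ampd3 (1.81), Spaca9 (1.75) and Taf11 (1.71) on the other, with adjusted p from 0.439 to 0.763 by limma. At Ampd3, an AMP deaminase gene, the width was 729 and 866 bases in WT untreated, 239 and 158 in WT with LPS, 774 and 780 in KO untreated, and 650 and 683 in KO with LPS. WT with LPS was again the narrow group, but 158 bases in its library 2 was close to the narrowest peak in that list, 156.

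Across the 9888 regions the LPS differences in WT and in KO had a Pearson correlation of 0.291 and a Spearman correlation of 0.227, as a description over regions that share libraries and peak calling. They were negative in both genotypes at 51.5% of the regions and positive in both at 11.2%. Away from gene ends the Pearson correlation was 0.406.

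Of 40 genes that macrophages induce early on LPS, 35 had a region at an end called in every list (41 regions), of which 3 passed as wider (Cxcl2, Tnfaip2 and Pim1) and 0 as narrower, where 0.152% of all regions at gene ends and 0.444% of all tested were called wider. The median width over the 41 was 663 and 762 bases in WT untreated, 780 and 808 in WT with LPS, 594 and 581 in KO untreated, and 700 and 675 in KO with LPS. Both KO groups lay below the WT group of the same treatment, and each LPS group above its untreated one, without overlap of the libraries. The median log2 difference was +0.029 for LPS, against -0.092 at all gene ends, and -0.17 for KO, against -0.054. Split by genotype, the LPS median was +0.12 in WT, with 41.5% of the 41 below 0, and +0.014 in KO, with 48.8% below 0. Region by region there was thus little widening in KO. At all gene ends these LPS medians were -0.063 and -0.11. The difference between genotypes was not tested for this list. A low KO median was not particular to this list. It was -0.21 for the genes induced later and -0.16 for transfer RNA synthetase genes. For AP-1, ATF and MAPK feedback genes it was also -0.16. Treatments that did not overlap on the wider side were found at 12.2% of the 41, and genotypes that did not overlap on the narrower side at 12.2%, against 1.2% and 4.06% at all gene ends. Among the 14 of these regions with a single start site, 13 had a shorter stretch in KO before the start site and 13 after it, against 64.4% and 65.5% of the 3921.

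Tnf itself (region also at the finish of Lta) held 228 and 493 bases in WT untreated, 794 and 644 in WT with LPS, 242 and 257 in KO untreated, and 423 and 548 in KO with LPS. One untreated WT library overlapped the LPS ones, and the difference of 1.02 did not pass (adjusted p = 0.101 by limma). Gadd45b, a stress-induced signalling protein, held 548 and 703, 1191 and 1282, 552 and 538, and 980 and 685 bases (0.79, adjusted p = 0.0528 by limma, and 0.0388 when libraries were centred). Nfkbia, the NF-kB inhibitor IkBa, held 790 and 823, 1160 and 1043, 792 and 724, and 754 and 921 bases (0.29, adjusted p = 0.134). Its WT LPS libraries were the widest, and the KO LPS ones overlapped the untreated range. Il6 held 648 and 556, 721 and 704, 529 and 557, and 570 and 549 bases (0.15, adjusted p = 0.362), again with WT LPS the widest. Nfkbie, another NF-kB inhibitor, held 1016 and 915, 1269 and 1069, 634 and 771, and 661 and 684 bases, and all KO libraries lay below all WT ones (-0.63 for KO, adjusted p = 0.162).

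Of 21 genes induced later 8 had a region, with medians of +0.078 for LPS and -0.21 for KO over 9 regions and 0 calls. At all gene ends 0.799% of regions were called narrower and 0.152% wider with LPS. In lists this small, here and below, 0 calls thus say little. The LPS median of the 9 regions of the later genes was +0.20 in WT and -0.046 in KO. Of the interferon-induced genes, 23 of 29 had one (25 regions, 0 calls), with medians of -0.035 and -0.11. Oasl1, an antiviral gene, had a region over its start of 453 and 447 bases in WT untreated, 559 and 493 in WT with LPS, 322 and 321 in KO untreated, and 337 and 335 in KO with LPS. All KO libraries lay below all WT ones, and the KO difference of -0.56 did not pass (adjusted p = 0.186 by limma). Of 11 LPS genes linked to NFAT5, 5 had a region (6 regions, 0 calls), with medians of +0.11 for LPS and -0.15 for KO. Among them was Ccl2, with 663 and 678, 572 and 682, 545 and 527, and 556 and 552 bases. Every KO library was below every WT one there, by -0.25 (adjusted p = 0.405), and the LPS difference was -0.027, or 0.096 after centring and 0.036 without WT LPS library 1 (adjusted p = 0.882 by limma over all 8). Ptgs2, which encodes the cyclooxygenase COX-2, held 726 and 657, 731 and 772, 657 and 558, and 786 and 804 bases, all LPS libraries above all untreated ones (0.26 for LPS, adjusted p = 0.153 by limma). Ciita and Il1b had no region that met the rule.

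Nfat5 had a region over its own start in all libraries, including the KO ones (chr8:107292751-107293816). Its width was 1066 and 795 bases in WT untreated, 486 and 746 in WT with LPS, 963 and 897 in KO untreated, and 454 and 551 in KO with LPS. The genotypes overlapped (-0.13, adjusted p = 0.834 by limma) and the treatments did not (-0.75, adjusted p = 0.0825). Which stretch of the gene the knockout lacks is not given, so an open start checks nothing about the labels. Of 14 genes of the osmotic stress response 10 had a region (12 regions, 0 calls), with medians of -0.17 for LPS and -0.13 for KO. These pooled values hid opposite signs: the LPS median was +0.016 in WT (33.3% of the regions below 0) and -0.29 in KO (83.3%), and the KO median was +0.021 untreated and -0.27 with LPS. The difference between genotypes was not tested for the list. Slc38a2, an amino acid transporter gene of that response, held 775 and 750, 485 and 561, 811 and 770, and 575 and 320 bases (-0.71 for LPS, adjusted p = 0.107), with no overlap of treatments.

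NF-kB and TLR signalling genes (23 of 26, 30 regions) had medians of -0.14 and -0.061 with 2 narrower calls for LPS (Tab1 and Rel), where 0.799% of all regions at gene ends and 1.25% of all tested were called narrower. AP-1, ATF and MAPK feedback genes (22 of 27, 24 regions) had -0.074 and -0.16 with 1 narrower call (Mapkapk2). In that list Mapk8, the kinase JNK1, held 663 and 650 bases in WT untreated, 867 and 871 in WT with LPS, 535 and 508 in KO untreated, and 538 and 522 in KO with LPS. The KO libraries were all below the WT ones, and among them the treated and untreated widths overlapped (KO difference -0.52, adjusted p = 0.136 by limma). Macrophage identity genes (26 of 29, 31 regions, 0 calls) had -0.13 and -0.039. The lowest LPS value there was at Mrc1, the mannose receptor, with 449 and 462, 278 and 351, 412 and 403, and 172 and 224 bases (-0.80, adjusted p = 0.0532 by limma). Every LPS library was below every untreated one, though 172 bases in KO LPS library 1 was close to that list's narrowest peak, 167. Alternative activation genes (7 of 14, 8 regions, 0 calls) had -0.12 and -0.056, and MHC class II genes (4 of 12, 5 regions, 0 calls) -0.050 and -0.14 (for LPS -0.12 in WT and 0.0004 in KO).

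Housekeeping groups had 0 calls in LPS and KO. At all gene ends 0.799% of regions were called narrower and 0.152% wider with LPS, and 0.0101% narrower in KO. In lists of this size 0 calls thus say little about these genes. Their medians lay on either side of those at all gene ends, -0.092 for LPS and -0.054 for KO. The KO medians of transfer RNA synthetase, glycolysis and hypoxia, and chromatin remodelling genes lay farthest below. Cytosolic ribosomal protein genes (51 of 55, 58 regions) had -0.13 for LPS and -0.042 for KO, proteasome genes (33 of 34) -0.050 and -0.053 (for LPS +0.023 in WT and -0.084 in KO), splicing genes (38 of 39) -0.071 and -0.037, and RNA polymerase II and Mediator genes (40 of 43) -0.10 and -0.049. Respiratory chain genes (36 of 41) had -0.12 and -0.069, chromatin remodelling genes (31 of 38) -0.076 and -0.10, cell cycle genes (25 of 32) -0.082 and -0.050, and glycolysis and hypoxia genes (18 of 22) -0.17 and -0.13. Transfer RNA synthetase genes (18 of 19) had -0.088 and -0.16, with 90.5% of 21 regions below 0 in KO, against 67.5% at all gene ends. Such a high share was not particular to them. It was 91.7% for osmotic stress, 84.8% for chromatin remodelling and 61.9% for splicing genes. At Aars, the alanyl-tRNA synthetase, the width was 662 and 768 bases in WT untreated, 517 and 570 in WT with LPS, 411 and 411 in KO untreated, and 482 and 346 in KO with LPS (KO difference -0.60, adjusted p = 0.238 by limma). Sdhb, a subunit of respiratory complex II, held 433 and 466, 450 and 417, 281 and 327, and 248 and 280 bases (-0.64, adjusted p = 0.186). In both, the KO libraries lay below the WT ones.

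**Figure D5:**
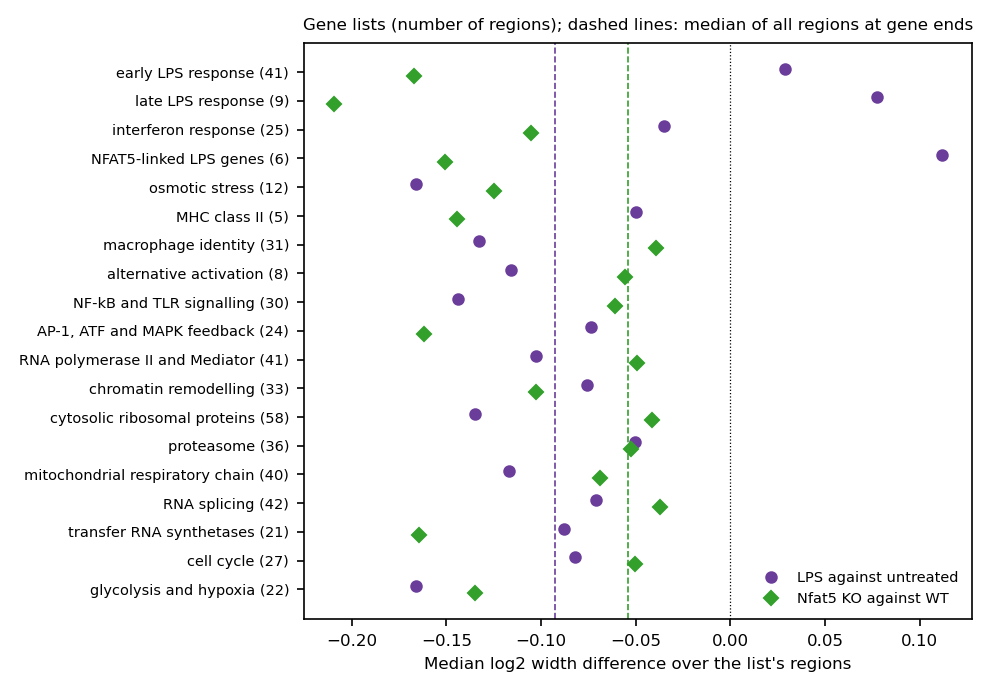
Median log2 width difference over the regions of each gene list with at least 5 regions (number in brackets), for LPS against untreated (circles) and KO against WT (diamonds). Dashed lines mark the medians of all 9888 regions at gene ends, -0.092 for LPS and -0.054 for KO. The early LPS list sits right of the first (+0.029) and left of the second (-0.17). Other lists also sit well left of the second, among them late LPS (-0.21) and transfer RNA synthetases (-0.16).

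At the edge of the rule, the 155 regions at 900 to 1000 bases from a gene end had a median width of 510 bases and medians of -0.11 for LPS and -0.033 for KO. The 160 regions just beyond 1000 and up to 1100 bases had 537 bases, -0.14 and -0.019. A further 590 regions near gene ends were called in 7 of the 8 lists, with a median width of 361 bases. The library that lacked the call was a WT untreated one for 25 and 28, a WT LPS one for 55 and 74, a KO untreated one for 48 and 55, and a KO LPS one for 132 and 173.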

How the data were processed

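The authors deposited 1 peak list per library, 8 in all, with the start and end of each peak on GRCm38 and no score, count or signal. The submitters' processing notes name MACS2 2.1.1, which calls peaks, Bowtie2 2.3.0, an aligner, bcl2fastq 2.17.1.14 and Picard, without their settings. Whether reads were shifted for the transposase or duplicates removed is not stated there. Peaks on 21 chromosomes were merged where they shared 1 base or more, and gene ends came from the RefSeq table of GRCm38.p6. Width was the summed bases of a library's peaks in a region. No filter on low values was applied, since each of the 9888 regions has a width in every library. Log2 width was fitted with limma 3.58.1 in R 4.3.3 (lmFit, contrasts.fit, eBayes with a trend) with 4 group means of 2 libraries, over all 36009 regions called in all 8 lists, two-sided, with Benjamini-Hochberg adjustment over all of them and a threshold of 0.05. Other steps used Python 3.11.15 with pandas 2.3.3. The script was tested on simulated data. Groups came from the labels. Named genes were, by rule, the 10 regions most narrowed and most widened with LPS and in KO whose libraries do not overlap (filled with regions that did not pass where fewer did), the 5 largest differences between genotypes in each direction, up to 3 and 2 genes per list by LPS and KO difference, and 10 genes in any case, with predicted genes passed over. A few of these and 1 marker list are not reported here. Each list counts every region at an end of its genes. The regions, the gene lists and the tests were chosen with earlier results of these data known. Alternatives were centring, the widest peak, widths without a log, 2 kb, peaks covering 50% of a region, peaks of at least 300 bases, limma without the trend, regions of 1 peak, a block, and leaving out each library.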

Additional observations from a re-analysis of the deposited data

How the results depend on the processing

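Read depth is unknown, and with 2 libraries a group every adjusted p lay near the threshold, so that the calls depended on single libraries while the medians kept their sign. Leaving out 1 library gave 0 to 60 narrower and 0 to 5 wider regions for LPS, 0 and 0 for KO, 0 to 2 narrower and 0 wider for LPS in WT, 0 to 4 narrower and 0 wider for LPS in KO, 0 to 3 narrower and 0 to 1 wider for KO with LPS, and 0 for KO untreated and for the difference between genotypes. The medians ranged from -0.10 to -0.083 for LPS and from -0.062 to -0.045 for KO. Centring gave 31 narrower and 31 wider for LPS and 1 and 0 for LPS in WT, a median of +0.031 for LPS, which is the reverse sign, and of -0.014 for KO, and Ccl2 at 0.096 for LPS (-0.091 to 0.036 when 1 library was left out), since centring takes out the libraries' own medians. The widest single peak gave 9 wider for LPS, 2 narrower for KO, 29 narrower and 4 wider for LPS in WT, 13 narrower for LPS in KO, and 17 narrower and 4 wider for KO with LPS. Widths without a log gave 0 narrower for KO, 9 narrower for LPS in WT, and 0 and 0 for KO with LPS. Peaks covering 50% of the region, with fewer regions tested, gave 8 narrower and 3 wider for LPS (median -0.071), 0 for KO, 1 and 0 for LPS in WT, and 0 and 1 for KO with LPS. Peaks of at least 300 bases, again with fewer regions, gave 41 narrower and 9 wider for LPS, 0 for KO, 8 and 3 for LPS in WT, 5 narrower for LPS in KO, and 1 wider for KO with LPS. limma without the trend gave 6 narrower and 0 wider for LPS in WT and 1 and 0 for KO with LPS, and regions of 1 peak gave 1 wider for KO, 1 narrower for LPS in KO and 1 wider for KO with LPS. Except where given above, the cause of these differences was not tested. Same-numbered libraries deviated together with correlations of 0.054, 0.054, 0.041 and 0.017, so the numbers were not shown to pair the samples. With the replicate block, 0 regions at gene ends passed in any comparison, where 79 narrower and 15 wider passed for LPS without it, so all LPS and KO calls given here were lost under it.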
